A study of Mus musculus with 46 samples.

Results

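The 9 genes described here make, process and export messenger RNA, or cut the precursors of microRNAs: Rngtt, Ncbp1, Smu1, Lsm8, Pnisr, Ints8, Thoc1, Drosha and Zfr. They were chosen by function, and a member was kept where its row of the count table averaged at least 5 CPM (counts per 1000000 assigned to identifiers). All 9 passed, of 55416 gene identifiers in the table, and each lies in 1 of 4 chromosome segments of GRCm38 in which the levels of the rows follow the genes their identifiers name. In the rest of the table they do not, so genes are named only in these segments, and the remaining rows are intervals whose gene is unknown. Levels, not fold changes, chose the segments.

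RNA was sequenced from mouse embryonic fibroblasts (MEFs), cells grown out of mouse embryos, after 7 h in medium with borrelidin or with its solvent. The 4 groups were ATF4 KO with 600 nM borrelidin (12 libraries), ATF4 KO with DMSO vehicle (11 libraries), wild type with 600 nM borrelidin (12 libraries) and wild type with DMSO vehicle (11 libraries). Borrelidin inhibits threonyl-tRNA synthetase and is used here to raise ATF4, a transcription factor of the amino acid and stress responses, and the design asks which responses to it need the Atf4 gene. The ATF4 KO cells were a CRISPR/Cas9 line made in house and the wild type cells a purchased line, so loss of ATF4 cannot be told apart from any other difference between the lines. Because Atf4 itself is not in a segment, its transcript is not reported.

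A new messenger RNA receives a methylated guanosine cap at its front end while RNA polymerase II is still transcribing it. Rngtt adds the guanosine, and Ncbp1 is the large subunit of the nuclear complex that then holds the cap. Introns are removed by the spliceosome: Smu1 is a protein of its precatalytic form, Lsm8 belongs to the ring of LSm proteins on its U6 small nuclear RNA, and Pnisr is a serine- and arginine-rich protein of nuclear speckles, where splicing factors gather. Ints8 is a subunit of Integrator, which cleaves small nuclear RNAs and short nascent transcripts. Thoc1 is a subunit of the THO complex, which couples transcription to export from the nucleus. Drosha is the nuclease of the microprocessor, which cuts primary microRNA transcripts in the nucleus. Zfr is a zinc finger protein that binds double-stranded RNA, and in human cells it acts in pre-mRNA splicing.

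Each library held 2047362 to 3467765 counts assigned to identifiers (median 2869299), and the group medians lay between 2815097 and 3031782. The members had 230 to 3734 raw counts per library, so that counting error alone came to at most 6.59% of a value, at the lowest Rngtt count. Of the genes listed as fibroblast markers, 6 of 17 lie in the segments: Tln1 (2220 CPM on average), Cav1 (431 CPM), Met (245 CPM), Cav2 (165 CPM), Npr3 (49.0 CPM) and Adamts12 (5.36 CPM). Tln1 and Met are not particular to fibroblasts, and Tln1 is the largest part of the sum. The summed level of the 6 ran from 2310 to 3590 CPM in ATF4 KO with borrelidin, 3600 to 4750 CPM in ATF4 KO with vehicle, 2050 to 2570 CPM in wild type with borrelidin and 2660 to 3940 CPM in wild type with vehicle. Its part in the results was not tested. Of other cell types, the epithelial marker Esrp1 averaged 0.231 CPM, the immune markers Il7r, Pax5 and Cd72 averaged 0.0372, 6.77 and 92.8 CPM, and the 4 neural markers together stayed at or under 20.4 CPM in each library.

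Libraries of the same group did not all look alike. On the second principal component of the 500 most variable intervals, which held 22.2% of their variance, 14 of the 46 libraries stood apart from the rest of their group: replicates 1 to 3 of ATF4 KO with borrelidin, replicates 1 to 3 of ATF4 KO with vehicle, and replicates 1 to 8 of wild type with vehicle. Of the 12 wild type libraries given borrelidin, none did. No member was among these 500 intervals, though Pnisr came just after them, at rank 502 of 8986 by variance. In wild type, borrelidin and this split therefore overlap, as only 3 vehicle libraries belong to the same set as the 12 borrelidin libraries, and each result is given with all libraries and with the 32 that remained. Assigned counts had a median of 3009564 in the 14 libraries and 2815097 in the other 32, and 67.6% to 70.9% and 63.8% to 70.8% of their reads overlapped no annotated feature.

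The members differed between the 2 sets of libraries in all 3 groups that hold both. Pnisr was higher in the libraries that stood apart, by 1.31 on the log2 scale in ATF4 KO with borrelidin, by 1.43 in ATF4 KO with vehicle and by 1.06 in wild type with vehicle, without overlap, as were 17.5%, 22.5% and 20.6% of all intervals in these groups. Most other members were lower there. In ATF4 KO with borrelidin 6 of the 9 members lay wholly below the rest of the group, beside 19.8% of all intervals. In ATF4 KO with vehicle 7 did, beside 21.4%, and in wild type with vehicle 8 did, beside 19.9%. Smu1 showed it in each group, with log2 ratios of -0.71 in ATF4 KO with borrelidin, -0.68 in ATF4 KO with vehicle and -0.96 in wild type with vehicle. Thoc1 and Drosha were nearest to 0. Thoc1 had log2 ratios of -0.17 and 0.07 in the same 2 ATF4 KO groups, where the sets overlapped, and -0.26 in wild type with vehicle. Drosha had -0.11 in ATF4 KO with borrelidin, where the sets overlapped, -0.24 in ATF4 KO with vehicle and -0.23 in wild type with vehicle.

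**Figure D1:**
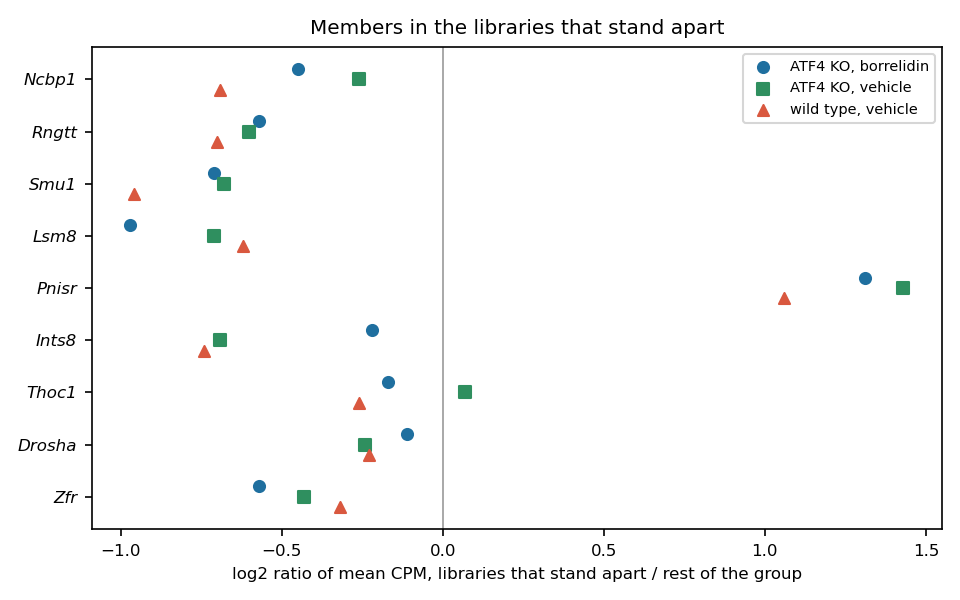
Log2 ratio of the mean TMM-normalized CPM in the 14 libraries that stood apart over that in the rest of the same group (horizontal axis), for each member (vertical axis) and each of the 3 groups that hold both sets (symbols). Pnisr is the member to the right of 0 in all 3 groups, at 1.31, 1.43 and 1.06, and Thoc1 and Drosha are nearest to 0.

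The upstream sequences of 4 members are shown. With all libraries, Ncbp1 and Drosha were lower in ATF4 KO with borrelidin without overlap with wild type, as were 6.09% of all intervals. Lsm8 was higher with borrelidin in wild type without overlap, as were 4.06%. Zfr had the highest fold change with borrelidin in ATF4 KO. Each is the stretch of 250 bases before the RefSeq start (GRCm38.p6, plus strand), written 5′ to 3′, at chr4:46138261-46138510 for Ncbp1, chr15:12824565-12824814 for Drosha, chr6:18848385-18848634 for Lsm8 and chr15:12117601-12117850 for Zfr. Capitals mark a match to the core of the CRE (cyclic AMP response element), searched as TGACG on both strands.
Ncbp1: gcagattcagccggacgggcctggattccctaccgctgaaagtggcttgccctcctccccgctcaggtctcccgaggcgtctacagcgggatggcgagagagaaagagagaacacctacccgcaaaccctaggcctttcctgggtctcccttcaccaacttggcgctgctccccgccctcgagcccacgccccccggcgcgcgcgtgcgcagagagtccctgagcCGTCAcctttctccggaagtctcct
Drosha: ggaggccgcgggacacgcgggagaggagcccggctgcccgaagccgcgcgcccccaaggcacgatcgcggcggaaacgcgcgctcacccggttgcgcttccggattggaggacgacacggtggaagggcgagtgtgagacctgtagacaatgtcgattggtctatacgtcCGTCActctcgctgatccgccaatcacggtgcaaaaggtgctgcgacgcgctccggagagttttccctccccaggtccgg
Lsm8: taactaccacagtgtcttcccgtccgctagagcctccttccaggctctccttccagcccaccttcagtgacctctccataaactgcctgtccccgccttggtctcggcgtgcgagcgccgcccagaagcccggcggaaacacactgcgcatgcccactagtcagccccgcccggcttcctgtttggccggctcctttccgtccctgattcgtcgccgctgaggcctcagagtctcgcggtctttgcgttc
Zfr: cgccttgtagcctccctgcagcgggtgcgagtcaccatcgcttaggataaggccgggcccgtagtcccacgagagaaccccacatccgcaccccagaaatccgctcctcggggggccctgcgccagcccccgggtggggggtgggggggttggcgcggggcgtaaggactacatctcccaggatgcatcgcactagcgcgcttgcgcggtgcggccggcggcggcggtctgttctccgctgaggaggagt

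RefSeq promoter windows, from 250 bases before to 50 after the start, were found for 5 members (Ncbp1, Rngtt, Lsm8, Drosha and Zfr). The CRE core was in 2 of the 5, against 20.8% of all 32851 windows. It began 25 bases before the start in Ncbp1 and 80 bases before it in Drosha. The full CRE, TGACGTCA, of which this core is a part, was in 0 of the 5 and in 1.79% of all windows. The core TGATGNAA of the amino acid response element, to which ATF4 binds, was likewise in 0 of the 5 and in 3.97% of all windows. These matches describe the letters of the window and not binding.

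The first comparison asked how the members answered borrelidin in cells that lack ATF4, and then in wild type cells. In ATF4 KO cells, Zfr was 1.67-fold and Thoc1 1.20-fold higher with borrelidin than with vehicle, and Ints8 was 0.78-fold as high, while the other 6 members did not pass the test. In bulk RNA, fewer cells of a type and less RNA per cell cannot be told apart. In wild type cells 7 members were higher with borrelidin, Ncbp1, Rngtt, Smu1, Lsm8, Thoc1, Drosha and Zfr, by 1.25-fold to 1.64-fold, and Pnisr was 0.51-fold as high. A call is an adjusted p under 0.05 in edgeR's quasi-likelihood test, adjusted by Benjamini and Hochberg over all 8986 intervals tested.

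In ATF4 KO cells the 3 calls of 9 stand beside 30.3% of all intervals called, the 2 higher ones beside 15.0% called higher and the 1 lower one beside 15.3% called lower. The median log2 fold change of the members was 0.13, against -0.03 over all intervals. In wild type the 8 calls of 9 stand beside 59.4% of all intervals called, the 7 higher ones beside 26.5% called higher and the 1 lower one beside 32.9% called lower. Among the 372 tested intervals of the segments 42.2% were called higher and 17.5% lower in wild type, against 26.3% and 16.9% in ATF4 KO. The median log2 fold change of the members in wild type was 0.38, against 0.18 over the segments and -0.06 over all intervals.

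Leaving out the 14 libraries changed the comparison in wild type most. Then 3 members were called, Ncbp1 and Zfr higher and Ints8 lower, beside 18.2% of all intervals, with 3 vehicle libraries left. A fit of all 46 libraries with the set as a block called 6, beside 29.8% of all intervals: Ncbp1 (log2 fold change 0.32), Zfr (0.33), Thoc1 (0.28), Drosha (0.19) and Smu1 (0.17) higher and Ints8 (-0.39) lower. This block takes the shift between the sets as equal in every group, and wild type with borrelidin holds only 1 set. The shifts were not equal. For Ncbp1 the log2 ratio was -0.45 in ATF4 KO with borrelidin, -0.26 in ATF4 KO with vehicle and -0.69 in wild type with vehicle. In ATF4 KO cells the fit without the 14 libraries called 6, 5 higher (Ncbp1, Rngtt, Lsm8, Thoc1 and Zfr) and Ints8 lower, beside 41.1% of all intervals. With all libraries 0 members were free of overlap between borrelidin and vehicle in ATF4 KO (2.50% of all intervals were). With the 32 libraries Rngtt, Thoc1 and Zfr lay wholly above, beside 7.09% of intervals, and Ints8 wholly below, beside 7.26%.

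**Figure D2:**
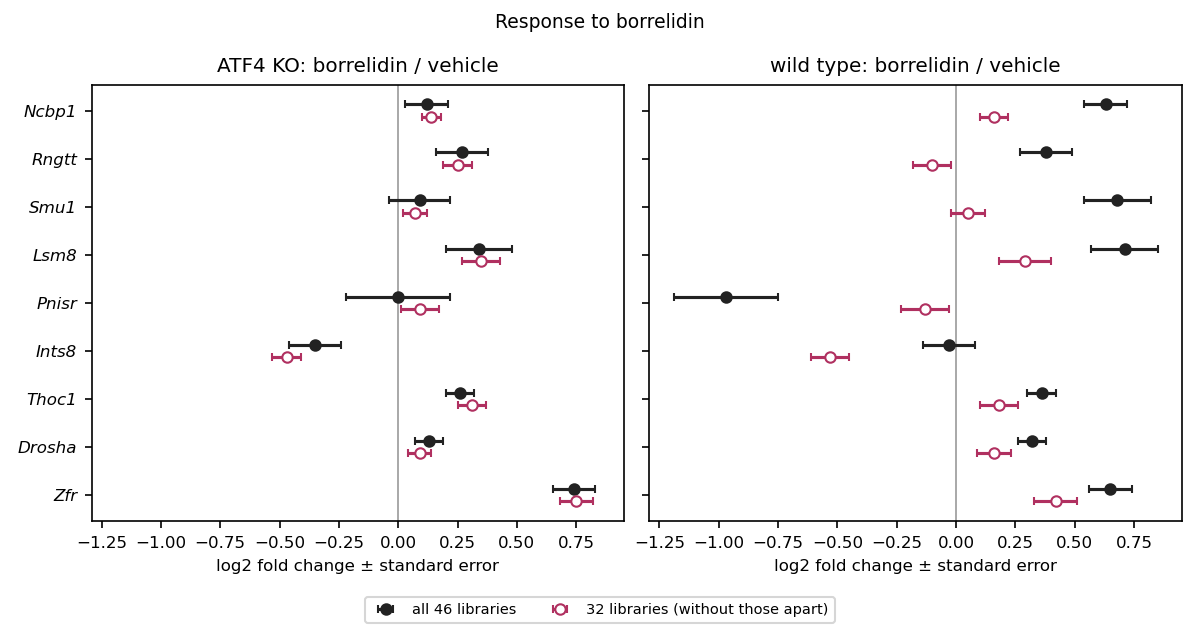
Log2 fold change of borrelidin over vehicle with its standard error (horizontal axis) for each member (vertical axis), in ATF4 KO (left) and wild type (right), with all 46 libraries (filled) and with 32 (open). In ATF4 KO Zfr is at 0.74 with all libraries and at 0.75 with 32. In wild type Pnisr is at -0.97 with all libraries and at -0.13 with 32, and Ints8 at -0.03 and -0.53.

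The difference of the responses, wild type minus ATF4 KO, was tested as an interaction. It was called for 3 of 9 members, beside 33.6% of all intervals and 43.8% of those in the segments (28.8% higher and 15.1% lower). The 2 higher ones, beside 16.5% called higher, were Smu1 (0.59 ± 0.19, SE, on the log2 scale) and Ncbp1 (0.51 ± 0.12), and the 1 lower one, beside 17.1% called lower, was Pnisr (-0.98 ± 0.31). With the 32 libraries none of these 3 was called and Rngtt was the 1 member called, at -0.34 ± 0.10 (adjusted p = 0.028 by edgeR), beside 9.68% of all intervals. With the set as a block Ncbp1 (0.23 ± 0.07), Rngtt (-0.30 ± 0.08) and Zfr (-0.39 ± 0.09) were called, beside 20.4% of all intervals.

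The study fitted a linear model with ATF4 and genotype as its terms. The paper ties the ATF4 term to the ATF4 activity seen in its reporter assays, but the coding itself was not found there. Here ATF4 was coded as high only in wild type with borrelidin. With a genotype term beside it, this coding compares wild type with borrelidin to wild type with vehicle. Its fold changes therefore had to equal those of the response in wild type. The fit is thus no second result beside that comparison. It called 7 members higher and 1 lower, beside 57.5% of all intervals called and 25.5% called higher, and 1, Ints8 (-0.53 ± 0.13, SE; adjusted p = 0.0059 by edgeR), without the 14 libraries, beside 10.5% of all intervals. Among the intervals of the segments, with all libraries, 57.0% were called and 40.3% called higher.

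Under borrelidin, ATF4 KO cells had less Drosha (0.71-fold) and less Ncbp1 (0.69-fold) than wild type cells and more Pnisr (1.81-fold). These 3 calls of 9 stand beside 49.8% of all intervals, the 1 higher one beside 25.7% called higher and the 2 lower ones beside 24.1% called lower. In the segments 26.3% were called higher and 28.2% lower. Under vehicle, Drosha was again lower in ATF4 KO (0.82-fold), and Ints8 (1.22-fold) and Thoc1 (1.15-fold) were higher. These 3 calls stand beside 35.3% of all intervals, the 2 higher ones beside 18.1% called higher and the 1 lower one beside 17.2% called lower. In the segments 28.2% were called higher and 11.6% lower. With the 32 libraries 7 members were called under borrelidin, beside 53.0% of all intervals: Pnisr, Rngtt, Zfr and Thoc1 higher and Drosha, Ncbp1 and Smu1 lower. Under vehicle 2 were then called, Drosha and Ncbp1, both lower in ATF4 KO, beside 20.6% of all intervals, with 3 wild type libraries left. The ranges of 4 members, Ncbp1, Smu1, Drosha and Zfr, then lay wholly below wild type under vehicle, beside 11.1% of intervals, and with all libraries none was free of overlap, beside 5.38% in either direction. Among the libraries that stood apart (3 against 8, share of intervals not computed) Drosha and Zfr again lay wholly below. Ncbp1 (log2 ratio of means 0.00) and Smu1 (0.11) overlapped there.

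The split of calls under borrelidin, 1 higher and 2 lower, depended on the scaling. It was 4 higher and 2 lower with library totals alone, where 71.0% of the calls over all intervals were higher, against 51.5% in the main test. It was 1 higher and 4 lower with factors from the segments, where 52.0% of all calls were higher. Under vehicle, the split of 2 higher and 1 lower was 1 and 1 with library totals and 0 and 1 with factors from the segments, and the share of all calls that were higher was 42.4% and 36.4%, against 51.2%. Drosha was called lower under each of these scalings in both comparisons.

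**Figure D3:**
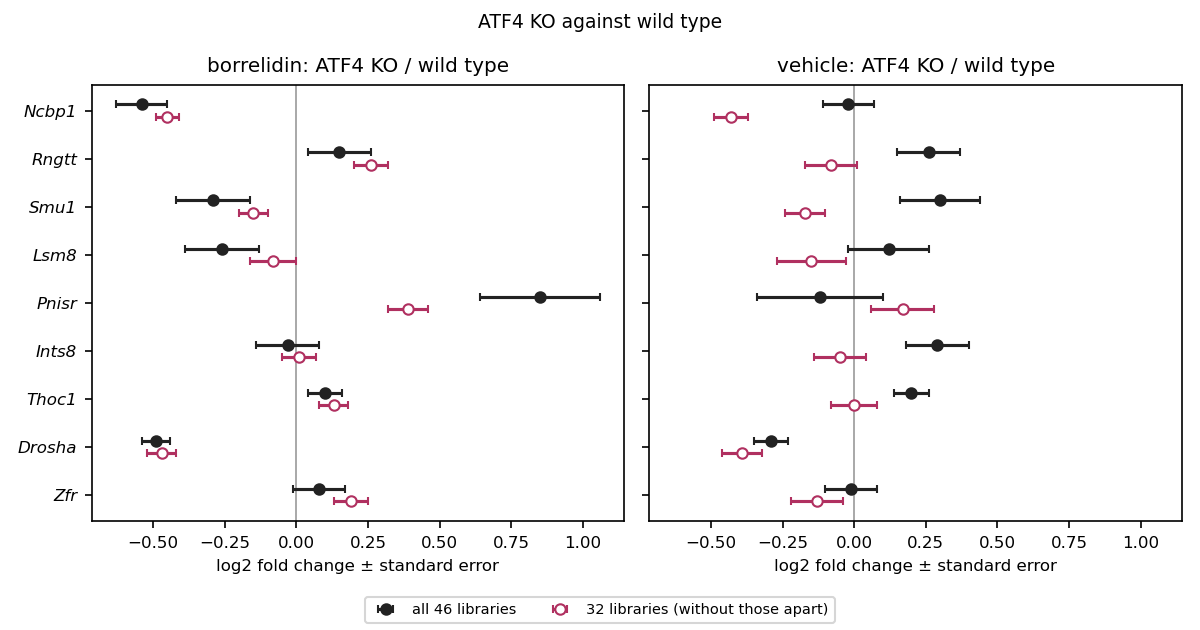
Log2 fold change of ATF4 KO over wild type with its standard error (horizontal axis) for each member (vertical axis), under borrelidin (left) and vehicle (right), with all 46 libraries (filled) and with 32 (open). Drosha lies left of 0 in all 4 estimates, at -0.49 and -0.47 under borrelidin and -0.29 and -0.39 under vehicle, and Ncbp1 under vehicle is at -0.02 with all libraries and -0.43 with 32.

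Rngtt (ENSMUSG00000028274) lies on the plus strand of chromosome 4, from 33310311 to 33502614. Its level ran from 129 to 235 CPM (median 211) in ATF4 KO with borrelidin, from 114 to 190 CPM (median 173) in ATF4 KO with vehicle, from 129 to 215 CPM (median 178) in wild type with borrelidin and from 96.8 to 194 CPM (median 120) in wild type with vehicle. All 4 ranges overlap. The log2 fold change with borrelidin was 0.27 ± 0.11 (SE; adjusted p = 0.058 by edgeR) in ATF4 KO and 0.38 ± 0.11 (adjusted p = 0.0034) in wild type. In ATF4 KO, among the libraries that did not stand apart, the capping enzyme was higher with borrelidin without overlap (log2 ratio of means 0.25, 9 against 8), as were 7.09% of all intervals. It was also higher without overlap in the libraries that stood apart (0.28, 3 against 3). The share of intervals was not computed there, and groups of 3 separate easily. In wild type the libraries that did not stand apart gave a log2 ratio of -0.10 (12 against 3) with overlap.

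Ncbp1 (ENSMUSG00000028330) lies on the plus strand of chromosome 4, from 46138613 to 46172403. It had 459 to 685 CPM (median 653) in ATF4 KO with borrelidin, 471 to 633 CPM (median 579) in ATF4 KO with vehicle, 807 to 973 CPM (median 884) in wild type with borrelidin and 466 to 814 CPM (median 488) in wild type with vehicle. Under borrelidin every ATF4 KO library lay below every wild type library, as did 6.09% of all intervals. ATF4 KO differed from wild type under borrelidin by -0.54 ± 0.09 on the log2 scale (SE; adjusted p = 8.8e-07 by edgeR), and -0.45 ± 0.04 (adjusted p = 2.0e-12) without the 14 libraries. In wild type with vehicle the 3 libraries of the larger set had 763 to 814 CPM and the 8 others 466 to 514 CPM. Under vehicle ATF4 KO differed from wild type by -0.02 ± 0.09 (adjusted p = 0.86 by edgeR), and by -0.43 ± 0.06 (adjusted p = 5.4e-07) without the 14 libraries. Among the libraries that stood apart the log2 ratio of means was 0.00 (3 against 8), with overlap. The response of Ncbp1 to borrelidin was 0.12 ± 0.09 (adjusted p = 0.33) in ATF4 KO and 0.63 ± 0.09 (adjusted p = 8.6e-08) in wild type, where it came to 0.16 ± 0.06 (adjusted p = 0.045) without the 14 libraries. At its ends the gene shares 82 exon bases with Tstd2 and 77 with Xpa, both on the opposite strand, and the strand setting of the counting is not given in the sources used here.

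Smu1 (ENSMUSG00000028409) lies on the minus strand of chromosome 4, from 40736542 to 40757923. It had 324 to 597 CPM (median 540.0) in ATF4 KO with borrelidin, 299 to 554 CPM (median 509) in ATF4 KO with vehicle, 546 to 703 CPM (median 593) in wild type with borrelidin and 231 to 618 CPM (median 318) in wild type with vehicle. In the 3 groups that hold both sets of libraries, the sets did not overlap. Its log2 fold change with borrelidin was 0.09 ± 0.13 (SE; adjusted p = 0.67 by edgeR) in ATF4 KO and 0.68 ± 0.14 (adjusted p = 4.2e-05) in wild type, where it was 0.05 ± 0.07 (adjusted p = 0.69) without the 14 libraries. Smu1 shares 608 exon bases with Dnaja1, a chaperone gene on the opposite strand with 1740 CPM on average, so reads of the 2 genes may not have been told apart there.

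Lsm8 (ENSMUSG00000044155) lies on the plus strand of chromosome 6, from 18848579 to 18855751. It had 105 to 294 CPM (median 215) in ATF4 KO with borrelidin, 99.1 to 205 CPM (median 174) in ATF4 KO with vehicle, 211 to 330 CPM (median 228) in wild type with borrelidin and 109 to 205 CPM (median 144) in wild type with vehicle. Among the members Lsm8 alone had every wild type library with borrelidin above every one with vehicle, as did 4.06% of all intervals. Leaving out the 14 libraries could not undo this order, and 5.90% of intervals had it among the 32. The log2 fold change with borrelidin was 0.34 ± 0.14 (SE; adjusted p = 0.060 by edgeR) in ATF4 KO and 0.71 ± 0.14 (adjusted p = 3.2e-05) in wild type. Among the 32 libraries it was 0.35 ± 0.08 (adjusted p = 7.4e-04) in ATF4 KO and 0.29 ± 0.11 (adjusted p = 0.073) in wild type.

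Pnisr (ENSMUSG00000028248) lies on the plus strand of chromosome 4, from 21847583 to 21876475. It had 297 to 989 CPM (median 387) in ATF4 KO with borrelidin, 304 to 963 CPM (median 376) in ATF4 KO with vehicle, 186 to 319 CPM (median 297) in wild type with borrelidin and 276 to 732 CPM (median 617) in wild type with vehicle. Its high values were all in the libraries that stood apart: 815 to 989 CPM in ATF4 KO with borrelidin, 910 to 963 CPM in ATF4 KO with vehicle and 494 to 732 CPM in wild type with vehicle. No library of the other set passed 433 CPM. The log2 fold change with borrelidin was 0.00 ± 0.22 (SE; adjusted p = 1 by edgeR) in ATF4 KO and -0.97 ± 0.22 (adjusted p = 2.1e-04) in wild type, where it was -0.13 ± 0.10 (adjusted p = 0.43) without the 14 libraries. Under borrelidin Pnisr was higher in ATF4 KO than in wild type by 0.85 ± 0.21 (adjusted p = 8.7e-04), and by 0.39 ± 0.07 (adjusted p = 1.2e-05) without the 14 libraries. Under vehicle, ATF4 KO was above wild type without overlap among the libraries that stood apart (log2 ratio of means 0.54, 3 against 8, share of intervals not computed), and overlapped with it in the rest (0.17, 8 against 3).

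Ints8 (ENSMUSG00000040738) lies on the minus strand of chromosome 4, from 11199158 to 11254258. It had 292 to 376 CPM (median 336) in ATF4 KO with borrelidin, 261 to 498 CPM (median 465) in ATF4 KO with vehicle, 255 to 426 CPM (median 340.0) in wild type with borrelidin and 269 to 504 CPM (median 297) in wild type with vehicle. The vehicle groups each fell into 2 levels. In ATF4 KO the 8 vehicle libraries of the larger set had 431 to 498 CPM and the 3 others 261 to 338 CPM, and in wild type the 3 libraries of the larger set had 475 to 504 CPM and the 8 others 269 to 318 CPM. The log2 fold change with borrelidin was -0.35 ± 0.11 (SE; adjusted p = 0.010 by edgeR) in ATF4 KO and -0.03 ± 0.11 (adjusted p = 0.83) in wild type. Among the 32 libraries it was -0.47 ± 0.06 (adjusted p = 1.9e-07) in ATF4 KO and -0.53 ± 0.08 (adjusted p = 5.7e-06) in wild type, and in both genotypes every library with borrelidin then lay below every one with vehicle, as did 7.26% of intervals in ATF4 KO and 5.23% in wild type. Within the ATF4 KO libraries that stood apart the log2 ratio was 0.02 (3 against 3), with overlap. Ints8 shares 609 exon bases with Ccne2, a cyclin gene on the opposite strand with 229 CPM on average.

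Thoc1 (ENSMUSG00000024287) lies on the plus strand of chromosome 18, from 9957906 to 9995489. It had 335 to 422 CPM (median 385) in ATF4 KO with borrelidin, 275 to 348 CPM (median 324) in ATF4 KO with vehicle, 317 to 432 CPM (median 355) in wild type with borrelidin and 221 to 325 CPM (median 273) in wild type with vehicle. Both genotypes had more Thoc1 with borrelidin, with an overlap of the ranges. On the log2 scale the change was 0.26 ± 0.06 (SE; adjusted p = 5.9e-04 by edgeR) in ATF4 KO and 0.36 ± 0.06 (adjusted p = 1.9e-06) in wild type, and the difference of the 2 responses was 0.10 (95% interval -0.06 to 0.27). Among the 32 libraries it was 0.31 ± 0.06 (adjusted p = 5.4e-05) in ATF4 KO and 0.18 ± 0.08 (adjusted p = 0.12) in wild type. In ATF4 KO the borrelidin range then lay wholly above the vehicle range, as in 7.09% of all intervals. Within the ATF4 KO libraries that stood apart the log2 ratio of means was 0.08 (3 against 3), with overlap. Under vehicle Thoc1 was higher in ATF4 KO by 0.20 ± 0.06 (adjusted p = 0.0078), and the difference was 0.00 ± 0.08 (adjusted p = 0.99) without the 14 libraries. With the set as a block it was 0.15 ± 0.06 (adjusted p = 0.036 by edgeR). Among the libraries that stood apart ATF4 KO lay above wild type without overlap (log2 ratio of means 0.32, 3 against 8, share of intervals not computed). Thoc1 shares 2169 exon bases with Usp14, a deubiquitinase gene on the opposite strand with 676 CPM on average. Its counts may therefore hold reads of that gene or lack reads that fell on both.

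Drosha (ENSMUSG00000022191) lies on the plus strand of chromosome 15, from 12824815 to 12935291. It had 389 to 498 CPM (median 456) in ATF4 KO with borrelidin, 331 to 460 CPM (median 406) in ATF4 KO with vehicle, 585 to 668 CPM (median 633) in wild type with borrelidin and 447 to 600 CPM (median 495) in wild type with vehicle. Under borrelidin every ATF4 KO library lay below every wild type library, as did 6.09% of all intervals. Under vehicle only the upper end of the ATF4 KO range reached the lower end of the wild type range. ATF4 KO differed from wild type by -0.49 ± 0.05 on the log2 scale (SE; adjusted p = 1.9e-10 by edgeR) under borrelidin and by -0.29 ± 0.06 (adjusted p = 4.5e-05) under vehicle. Under vehicle ATF4 KO lay below wild type without overlap inside each set of libraries, which was also so for Zfr. The log2 ratio of means of Drosha was -0.41 among those that stood apart (3 against 8, share of intervals not computed). It was -0.39 in the rest (8 against 3, where 11.1% of intervals lay wholly below). Under borrelidin it was -0.46 in the rest (9 against 12), where the lack of overlap follows from that over all libraries and 7.55% of intervals lay wholly below. The response to borrelidin was 0.13 ± 0.06 (adjusted p = 0.067) in ATF4 KO and 0.32 ± 0.06 (adjusted p = 4.9e-06) in wild type, and 0.16 ± 0.07 (adjusted p = 0.098) in wild type without the 14 libraries.

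Zfr (ENSMUSG00000022201) lies on the plus strand of chromosome 15, from 12117831 to 12185683. It had 522 to 882 CPM (median 827) in ATF4 KO with borrelidin, 362 to 525 CPM (median 464) in ATF4 KO with vehicle, 492 to 808 CPM (median 755) in wild type with borrelidin and 382 to 549 CPM (median 450.0) in wild type with vehicle. In ATF4 KO 1 borrelidin library fell just under the highest vehicle library, and in wild type 1 library with borrelidin lay inside the vehicle range. The log2 fold change with borrelidin was 0.74 ± 0.09 (SE; adjusted p = 1.3e-08 by edgeR) in ATF4 KO and 0.65 ± 0.09 (adjusted p = 8.9e-08) in wild type, and the difference of the 2 was -0.09 (95% interval -0.34 to 0.16; adjusted p = 0.60). That difference depended on the fit: it was called with the set as a block (-0.39 ± 0.09, adjusted p = 7.2e-04) and with library totals (-0.30 ± 0.11, adjusted p = 0.032), and was -0.32 ± 0.11 (adjusted p = 0.057) among the 32 libraries. Among the 32 libraries the log2 fold change with borrelidin was 0.75 ± 0.07 (adjusted p = 1.3e-11) in ATF4 KO and 0.42 ± 0.09 (adjusted p = 7.3e-04) in wild type. In ATF4 KO Zfr was higher with borrelidin without overlap in the rest (log2 ratio of means 0.76, 9 against 8), as were 7.09% of all intervals. The same order was seen among the libraries that stood apart (0.61, 3 against 3), where the share of intervals was not computed and groups of 3 separate easily. Under vehicle ATF4 KO differed from wild type by -0.01 ± 0.09 (adjusted p = 0.93 by edgeR) with all libraries, and by -0.22 ± 0.06 (adjusted p = 0.0043) with the set as a block. Inside each set ATF4 KO lay below without overlap. The log2 ratio of means was -0.24 among the libraries that stood apart (3 against 8) and -0.13 in the rest (8 against 3).

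**Figure D4:**
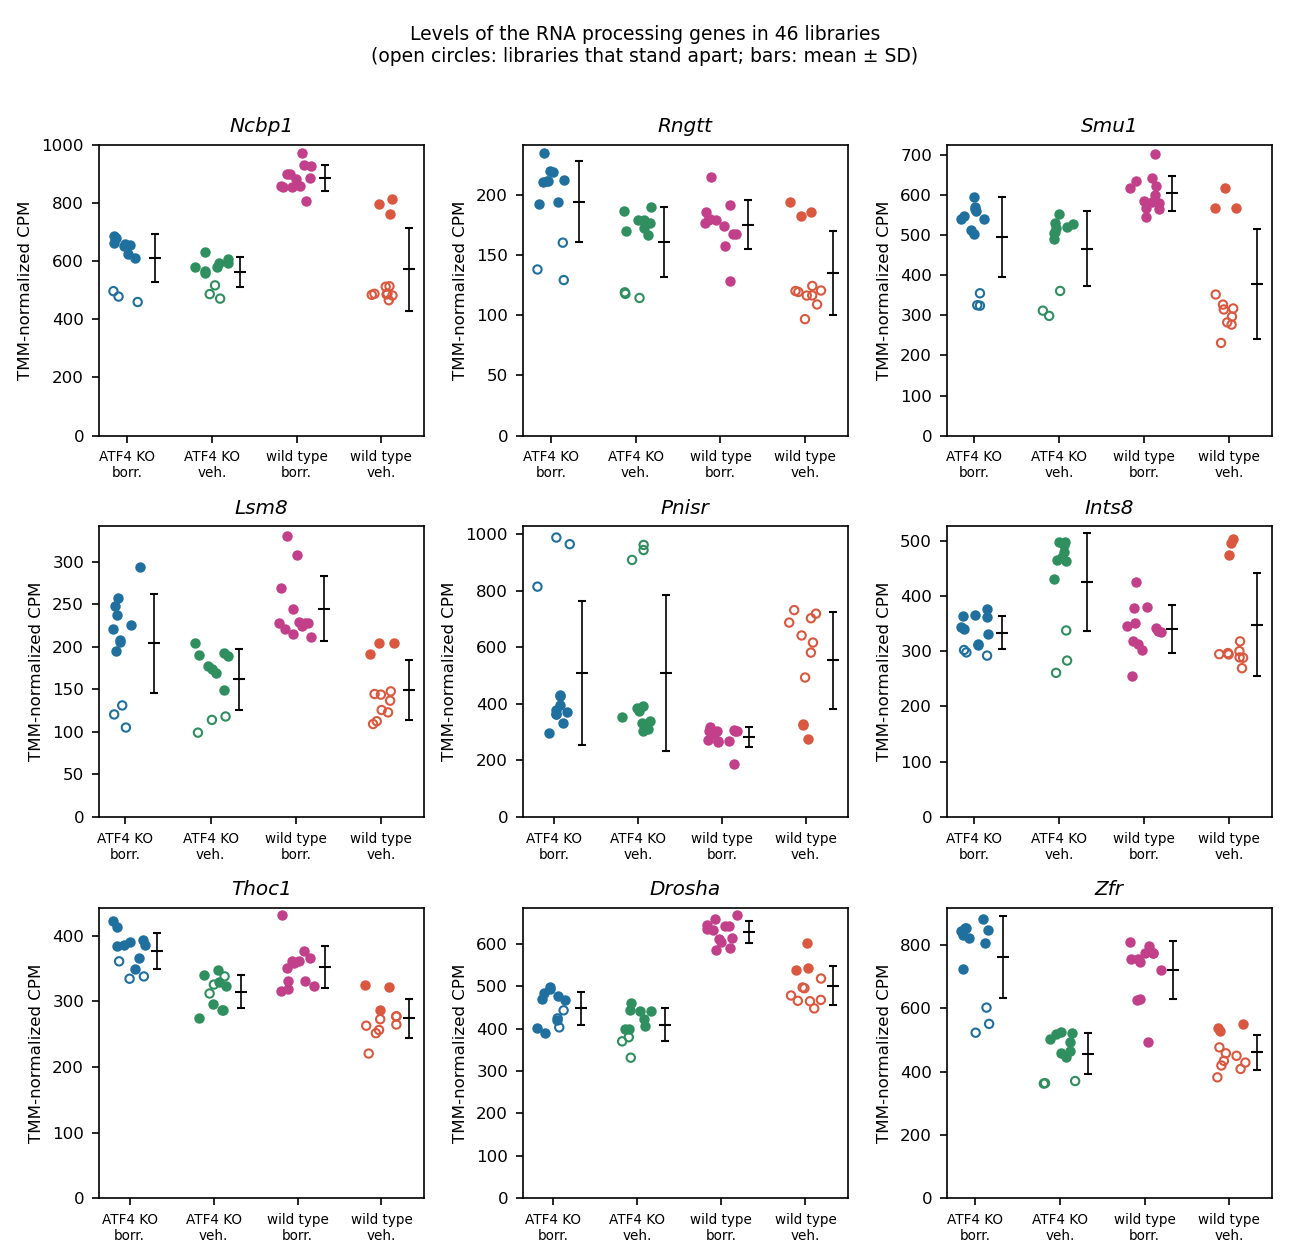
TMM-normalized CPM (vertical axis, from 0) of the 9 members in each of the 46 libraries by group, ATF4 KO with borrelidin (12), ATF4 KO with vehicle (11), wild type with borrelidin (12) and wild type with vehicle (11); open circles are the 14 libraries that stood apart and bars the mean ± SD. Drosha in wild type with borrelidin (585 to 668 CPM) is above all ATF4 KO values with borrelidin (389 to 498 CPM), and the open circles of Pnisr are above the filled ones in each of the 3 groups.

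Across the 46 libraries the log2 levels of the members were related as follows, as a description of libraries that share groups and sets. Lsm8 and Smu1, both of the splicing machinery, were the most alike (Pearson r = 0.90), and Ncbp1 followed Smu1 with r = 0.85. Pnisr ran against the other 8, from r = -0.89 with Smu1 to r = -0.33 with Thoc1. Among the 293 other protein-coding genes of the segments with at least 5 CPM, those most like Drosha were Tars, which codes for the threonyl-tRNA synthetase that borrelidin inhibits (r = 0.91), and Tmeff1 (0.85). The 2 most like each other member were Ccnc (0.91) and Rad23b (0.91) for Rngtt, Anp32b (0.96) and Cct5 (0.95) for Ncbp1, Stoml2 (0.97) and Ndufb6 (0.97) for Smu1, and Atp6v1f (0.95) and Ccdc107 (0.95) for Lsm8. For Pnisr they were Npr2 (0.93) and Rgp1 (0.91), for Ints8 Dnaja1 (0.88) and Tes (0.88), for Thoc1 Nfx1 (0.89) and Plekhf2 (0.85), and for Zfr Tmem209 (0.90) and Zfp622 (0.90).

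Of 169 other listed genes of RNA processing, 15 lie in the segments and 13 had at least 5 CPM. With borrelidin 5 of the 13 were higher in ATF4 KO, Zcchc7, Rbm12b1, Rbm12b2, Rpp25l and Exosc3, and 2 were lower, Pnrc1 and Snd1. Of all intervals 15.0% were called higher there and 15.3% lower, and of those in the segments 26.3% and 16.9%. In wild type 8 were higher and 1, Tdrd7, was lower, beside 26.5% of all intervals called higher and 32.9% lower. Among the intervals of the segments these shares were 42.2% and 17.5%. Without the 14 libraries 4 were higher and 1 lower, beside 18.2% of all intervals called. The split in wild type depended on the scaling: 5 were higher and 2, Tdrd7 and Pnrc1, lower with library totals, and 4 were higher and the same 2 lower with factors from the segments. The median log2 fold change of the 13 was 0.12 in ATF4 KO, against -0.03 over all intervals, and 0.23 in wild type, against -0.06. In wild type it was 0.08 with library totals and 0.03 with factors from the segments, against -0.22 and -0.26 over all intervals. In ATF4 KO the highest were Zcchc7, of a nuclear RNA surveillance complex (0.62 ± 0.07, SE; adjusted p = 3.6e-09 by edgeR), and Rbm12b1 (0.62 ± 0.14; adjusted p = 6.1e-04), whose reads may not all be told apart from those of its close copy Rbm12b2. The lowest there was Pnrc1, at -0.78 ± 0.11 (adjusted p = 1.3e-07). In wild type the highest was Rpp25l (0.65 ± 0.18; adjusted p = 0.0019), which was at 0.06 ± 0.16 (adjusted p = 0.85) without the 14 libraries.

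The interaction was called for 5 of the 13 listed genes, beside 33.6% of all intervals and 43.8% of those in the segments. Pnrc1 (0.67 ± 0.15, SE, log2), Pabpc1 (0.64 ± 0.13), Snd1 (0.51 ± 0.11) and Pop1 (0.47 ± 0.09) were higher in wild type minus ATF4 KO, and Tdrd7 was lower (-0.75 ± 0.09). With library totals these 4 were higher and 4 lower, as Zcchc7, Rbm12b1 and Rbm12b2 joined Tdrd7, and with factors from the segments the 4 were higher and Zcchc7 and Tdrd7 lower. Pabpc1 is the main cytoplasmic poly(A)-binding protein and Pop1 a subunit of the RNases P and MRP. With the 32 libraries 3 were called higher and 1 lower, beside 9.68% of all intervals called, Pop1 being at 0.24 ± 0.11 (adjusted p = 0.17 by edgeR). The listed genes with the highest and lowest genotype differences were Tdrd7 and Pop1, with and without the 14 libraries. Tdrd7, a tudor domain protein of RNA granules, had 483 to 710 CPM (median 573) in ATF4 KO with borrelidin, against 92.6 to 131 CPM (median 117) in wild type with borrelidin. Under vehicle it had 418 to 619 CPM (median 516) in ATF4 KO, against 158 to 197 CPM (median 176) in wild type. The groups did not overlap in either comparison. Of all intervals 4.97% lay wholly higher in ATF4 KO under borrelidin and 2.96% under vehicle. The log2 differences, ATF4 KO over wild type, were 2.31 ± 0.07 (adjusted p = 4.7e-32 by edgeR) under borrelidin and 1.56 ± 0.07 (adjusted p = 3.5e-25) under vehicle, and 2.34 ± 0.07 and 1.68 ± 0.11 among the 32 libraries. Pop1 differed by -1.15 ± 0.06 (adjusted p = 4.3e-21 by edgeR) under borrelidin and -0.68 ± 0.07 (adjusted p = 4.6e-12) under vehicle, and by -1.11 ± 0.06 and -0.86 ± 0.09 among the 32 libraries. In all, 3 of the 13 were higher and 5 lower in ATF4 KO under borrelidin, beside 25.7% and 24.1% of all intervals (26.3% and 28.2% in the segments). Under vehicle Tdrd7 alone was higher and Pop1 alone lower, beside 18.1% and 17.2% (28.2% and 11.6% in the segments).

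**Figure D5:**
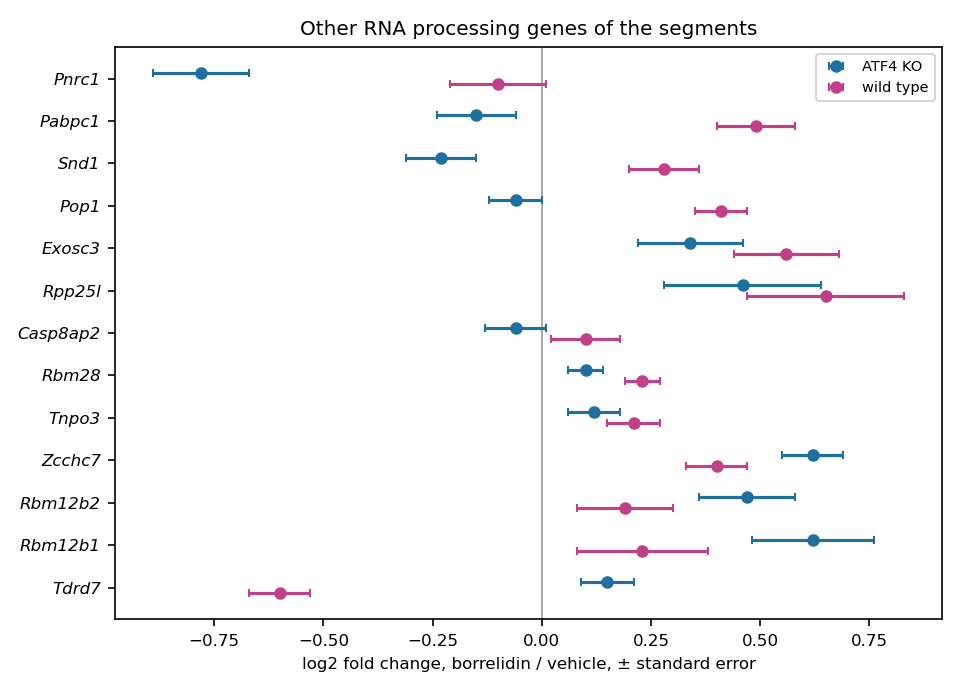
Log2 fold change of borrelidin over vehicle with its standard error (horizontal axis) for the 13 other RNA processing genes of the segments (vertical axis, ordered by the difference of the responses), in ATF4 KO and wild type, all 46 libraries. Pnrc1 (-0.78 in ATF4 KO, -0.10 in wild type) and Tdrd7 (0.15 and -0.60) are at the 2 ends.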

How the data were processed

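The authors deposited counts per mouse gene identifier for each of the 46 libraries, as whole numbers without normalization or pooling. The submitters' processing notes name HISAT2, HTSeq, limma and mm10, whereas the study's methods name feature counts for the counting. The closing rows of the table carry the names of HTSeq's summary rows. Of these, the row for reads that fell on more than 1 feature (ambiguous) held 0.2% to 0.3% of the reads of each library. The setting for reads shared by overlapping genes is not given. Of the versions, annotation release and strand setting, none is given in the sources used here. The 5 closing rows of the table name no gene and hold 69.0% (no feature) and 20.1% (other unassigned) of the reads on average; they stayed out of library sizes and tests, so CPM is per 1000000 assigned counts.

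Identifiers were placed with GENCODE M21 (GRCm38), which holds 52083 of them. Across genes, which are not independent replicates, the mean level followed the level column of the study's own gene table with r = 0.98 over 44 genes in the 4 segments (chromosomes 4, 6, 15 and 18; 8.5% of the counts), chosen on such levels, and r = 0.11 over 1664 genes elsewhere. Which exon bases gave the counts is not established.

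The main test was edgeR 4.0.16 under R 4.3.3, run on 4 group means (TMM, filterByExpr, quasi-likelihood, Benjamini-Hochberg over 8986 intervals, calls at 0.05). It was also run on simulated counts with changes only in wild type with borrelidin. These held no split of libraries into sets, so the simulation does not cover that split. Alternatives used DESeq2 1.42.0, limma 3.58.1 (voom), other scalings, no filter, only the groups compared, replicate and library set blocks, the 32 libraries, and a threshold of 1e-10. A library stood apart where the widest gap of component 2 in its group passed 50% of the group's range. The lowest chi-square per degree of freedom between libraries of a group was 1.89, so none was counted as a repeat. The labels call the libraries biological replicates.

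The members, the gene and marker lists and the alternatives were chosen with earlier results of these data known. Genes named are the 9 members; of the listed genes the highest and lowest of each comparison and those in counts of 5 or fewer; the 2 genes most like each member; and markers.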

Additional observations from a re-analysis of the deposited data

Results flagged for a closer look

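The response to borrelidin differed between the genotypes for 3 members by the interaction test with all libraries. The difference, wild type minus ATF4 KO on the log2 scale, was 0.51 for Ncbp1 (adjusted p = 0.0016 by edgeR), 0.59 for Smu1 (adjusted p = 0.015) and -0.98 for Pnisr (adjusted p = 0.013). Without the 14 libraries that stood apart, 8 of which are of wild type with vehicle and none of wild type with borrelidin, it was 0.02 for Ncbp1 (adjusted p = 0.92), -0.02 for Smu1 (adjusted p = 0.92) and -0.22 for Pnisr (adjusted p = 0.32). With the library set as a block it was 0.23 for Ncbp1 (adjusted p = 0.013), 0.10 for Smu1 (adjusted p = 0.40) and -0.04 for Pnisr (adjusted p = 0.83). That block takes the shift between the sets as equal in every group, which it was not. What sets these libraries apart was not tested.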

How the results depend on the processing

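Of the 45 log2 fold changes of members (9 in 5 comparisons), the median ratio normalization kept the direction and the side of the threshold of 44, limma voom of 43, DESeq2 of 41, no filter of 39, factors from the segments of 38, the replicate block of 36 and library totals of 32, against 20 with the library set as a block and 16 without the 14 libraries. The fit of only the groups compared, which cannot give the difference of response, kept 34 of 36. The scalings moved the median of all intervals for the response in wild type to -0.217 (library totals) and -0.261 (segment factors), against -0.061, and the share of its calls that were higher to 30.3% and 27.2%, against 44.6%. Without the filter, over 33929 intervals in place of 8986, that share was 34.5%. Library totals moved the medians of the difference of response to -0.277 and of ATF4 KO against wild type under borrelidin to 0.206, against -0.052 and 0.044.

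At a threshold of 1e-10, 0 members were called by edgeR or limma voom in each comparison, and DESeq2 called 2 for borrelidin in wild type (533 of 8986 intervals), 1 each for borrelidin in ATF4 KO (203 intervals), ATF4 activity (338) and ATF4 KO against wild type under borrelidin (908), and 0 elsewhere. At an unadjusted p under 0.05 edgeR gave 8, 6, 8 and 4 in these 4, 5 for the difference and 5 for ATF4 KO against wild type under vehicle. The share of all intervals at that threshold was not computed, so these counts are not read as a result about the members. Members called for borrelidin in ATF4 KO, against 3 (beside 30.3% of all intervals), were 6 with the set block (43.1%), 5 with the replicate block (33.4%) and 6 without the 14 libraries (41.1%). They were also 6 with DESeq2 (1448 intervals higher and 1406 lower, of 8986) and 7 with library totals (1839 higher and 963 lower). For borrelidin in wild type they were 3 without the 14 libraries (beside 18.2% of all intervals), against 8 (59.4%). For the difference, against 3 (33.6%), they were 6 with the replicate block (40.6%) and 1 without the 14 libraries (9.68%). For ATF4 activity, against 8 (57.5%), they were 5 with the set block (23.7%) and 1 without the 14 libraries (10.5%). For ATF4 KO against wild type under borrelidin, against 3 (49.8%), they were 7 with the set block (54.7%), 5 with the replicate block (52.1%) and 7 without the 14 libraries (53.0%). They were also 5 with segment factors (2299 intervals higher and 2118 lower) and 6 with library totals (3476 higher and 1422 lower). Under vehicle, against 3 (35.3%), they were 6 with the set block (35.1%) and 5 with the replicate block (42.2%). They were also 1 with segment factors (1119 intervals higher and 1957 lower) and 1 without the filter (1576 higher and 1640 lower, of 33929). The replicate block changed no other count by over 1.5 times. Libraries with the same number deviated together (r over 0.1) in all 11 ATF4 KO pairs (0.18 to 0.78), but in 2 of 11 once the mean of the library set was taken out, and 5 of the 22 libraries correlated best with their own number, so the numbers were not read as pairing them; elsewhere 2 of 11 (wild type), 5 of 10 (vehicle) and 3 of 12 (borrelidin) pairs passed.

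Some log2 fold changes turned round. With the set block these were Ints8 -0.06, Lsm8 -0.12 and Rngtt -0.30 for the difference, Ints8 0.11 for ATF4 KO against wild type under borrelidin, Lsm8 -0.24, Pnisr 0.37, Rngtt -0.02 and Smu1 -0.02 under vehicle, and Pnisr 0.02 and Rngtt -0.04 for borrelidin in wild type. Without the 14 libraries they were Ints8 -0.06, Lsm8 -0.07, Rngtt -0.34, Smu1 -0.02 and Thoc1 -0.13 for the difference, Ints8 0.01 for ATF4 KO against wild type under borrelidin, Ints8 -0.05, Lsm8 -0.15, Pnisr 0.17, Rngtt -0.08 and Smu1 -0.17 under vehicle, and Rngtt -0.10 for borrelidin in wild type. With library totals they were Drosha -0.03, Rngtt -0.10 and Thoc1 -0.11 for the difference and Ints8 0.12 for ATF4 KO against wild type under borrelidin, with segment factors Thoc1 -0.01 for the difference, and without the filter Ints8 0.02 for borrelidin in wild type and Ncbp1 0.01 and Zfr 0.03 under vehicle. The cause was not tested.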
